A study of Mus musculus with 28 samples.

Results

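The SLAM family receptors were described in livers of wild-type (WT) mice and of mice transgenic for *Sirt6* (SIRT6-tg). The family is represented here by 8 genes, *Slamf1*, *Slamf6*, *Slamf7*, *Slamf8*, *Slamf9*, *Ly9*, *Cd48* and *Cd84*, out of 49585 features counted, and all 8 passed the filter on low counts that left 21583 genes. The set was chosen by a measured value, since *Slamf7* had one of the strongest falls in SIRT6-tg males, so every value of the comparison of SIRT6-tg with WT males is given below as a description, without a test. Among the 9650 genes with a negative log2 fold change in males, ordered by p-value, *Slamf7* was in place 3, *Slamf8* in place 44, *Ly9* in place 151 and *Slamf1* in place 1508, with the other members between places 440 and 735.

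The 4 groups, WT and SIRT6-tg mice of each sex, held 7 mice each. All mice were of the C57BL/6JOlaHsd strain and 5 to 7 months old, ate the same chow and were fasted for some hours before the livers were taken, and the labels name no other genotype than the *Sirt6* transgene, which is carried in the whole body by 1 transgenic line. The promoter of the transgene is not given in the sources used here. RNA of whole liver was sequenced, and the libraries held 18758863 to 35393069 counted reads. *Sirt6* itself had a median normalized count of 72.3 in male WT and 7088 in male SIRT6-tg mice, and of 66.2 in female WT and 774 in female SIRT6-tg mice, so the transgene was read at a lower level in females. Hepatocyte genes summed to between 94400 and 186100 CPM (counts scaled to a fixed library total) in every library, and the labels name no batch.

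SLAM receptors are immunoglobulin-type surface proteins of blood cells. Most of them bind the same receptor on a neighbouring cell, so that 1 protein is both ligand and receptor, and tyrosine motifs in their tails recruit the small adaptors SAP (*Sh2d1a*) and EAT-2 (*Sh2d1b1*) or, without these, phosphatases. CD48 has no tail and is the ligand of CD244 and CD2, and SLAMF8 and SLAMF9 have short tails without these motifs. In the liver the family is known from Kupffer cells, natural killer (NK) cells, T cells, NKT cells and B cells.

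The 8 genes lie on chromosome 1 of GRCm38. The first group of 6, in the order *Ly9* (171588624 to 171607410), *Slamf7* (171632403 to 171653035), *Cd48* (171682009 to 171705258), *Slamf1* (171767127 to 171801184), *Cd84* (171839697 to 171890718) and *Slamf6* (171917515 to 171953170), spans 365 kb. After a gap of 522 kb follow *Slamf9* (172475358 to 172478575) and *Slamf8* (172581758 to 172590568), which together span 115 kb. *Ly9*, *Slamf7* and *Slamf8* are on the minus strand. The span of *Ly9* overlaps that of *Cd244a* on the other strand without shared exon bases, and 305 exon bases of *Slamf7* are shared with the antisense transcript *Gm37787*. The strand setting of the counting is not given in the sources used here, but *Gm37787* had at most 2 counts in any library.

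The upstream sequences of *Slamf7* and *Slamf8* are shown because these genes had the lowest log2 fold changes of the family in males, and that of *Slamf9* because it lies beside *Slamf8*. Each is the 250 bases before the RefSeq start site on GRCm38.p6, read 5′ to 3′ on the strand of the gene. Those of *Slamf7* are chr1:171649000-171649249 on the minus strand, inside the gene span of the Gencode annotation, those of *Slamf8* are chr1:172590569-172590818 on the minus strand, and those of *Slamf9* are chr1:172475110-172475359 on the plus strand. Capitals mark the letters of the searched motifs and a run shared by *Slamf8* and *Slamf9*.
Slamf7: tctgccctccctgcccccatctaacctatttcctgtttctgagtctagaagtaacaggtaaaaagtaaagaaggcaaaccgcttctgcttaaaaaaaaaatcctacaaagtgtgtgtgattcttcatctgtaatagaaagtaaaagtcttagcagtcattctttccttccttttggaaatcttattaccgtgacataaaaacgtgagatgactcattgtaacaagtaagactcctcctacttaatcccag
Slamf8: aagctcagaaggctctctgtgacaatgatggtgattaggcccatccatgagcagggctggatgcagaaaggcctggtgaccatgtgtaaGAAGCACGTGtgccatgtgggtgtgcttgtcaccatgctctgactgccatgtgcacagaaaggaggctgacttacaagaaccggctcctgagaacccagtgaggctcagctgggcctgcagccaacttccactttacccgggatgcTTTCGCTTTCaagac
Slamf9: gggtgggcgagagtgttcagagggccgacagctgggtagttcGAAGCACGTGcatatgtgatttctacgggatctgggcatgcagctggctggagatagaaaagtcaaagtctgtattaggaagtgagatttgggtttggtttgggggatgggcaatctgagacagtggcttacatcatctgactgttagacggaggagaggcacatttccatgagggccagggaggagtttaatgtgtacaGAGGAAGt

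Both strands were searched in the 7 members with a RefSeq window, all except *Ly9*, and in all 32851 windows of the same length. The interferon-stimulated element, written as GAAA, any pair of bases and GAAA again, the core of the element bound by interferon-regulated factors, was found in *Slamf8*, on the strand opposite to the printed one, and in 2.98% of all windows. The letters GAGGAAG, a form of the site of the myeloid factor PU.1, were found in *Slamf9* and in 10.6% of all windows. CACGTG was found in *Slamf8* and *Slamf9* and in 6.02% of all windows, and in both genes it is part of the run GAAGCACGTG, held by 0.0639% of all windows; this motif and the run were chosen after the sequences were seen. GGTGTGA (T-box, 3.33% of windows) matched in *Cd48*, TGTGGT (RUNX, 14%) matched in *Cd48*, where it overlaps the T-box letters, and in *Cd84*, and TTCNNNGAA (gamma-activated sequence, 7.02%) matched in no member. The *Slamf7* window held none of these letters. A match describes the sequence and is not a bound site.

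In male livers each of the 8 receptors had a lower mean in SIRT6-tg than in WT mice, as had 44.7% of all genes by the sign of the log2 fold change. Values are normalized counts, which are read counts scaled to a common library size by the TMM method, and are given as the lowest, median and highest of 7 mice. *Slamf7*, a self-binding receptor of NK cells, macrophages and plasma cells that signals through EAT-2, had 67.1, 111 and 186 in WT males and 8.33, 11.8 and 16.4 in SIRT6-tg males. The highest SIRT6-tg male was therefore far below the lowest WT male, and the group means differed 9.74-fold. The log2 fold change was −3.27 with a standard error of 0.28.

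*Slamf8*, a receptor of macrophages known to restrain their NOX2 oxidase, had 77.9, 156 and 319 in WT males and 11.8, 23.6 and 26.2 in SIRT6-tg males. These ranges did not overlap either, the means differed 9.17-fold, and the log2 fold change was −3.20 ± 0.33 (SE, n = 7 and 7). *Slamf9*, its neighbour and a receptor of myeloid cells, had 35.5, 84.1 and 128 in WT males and 9.69, 18.3 and 41.7 in SIRT6-tg males, with a log2 fold change of −1.97 ± 0.31. The highest SIRT6-tg male overlapped the WT males for *Slamf9*, and the other 6 were below all of them.

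Among the receptors known from lymphocytes, *Ly9*, a self-binding receptor of T and B cells, had 101, 167 and 259 in WT males and 36.6, 52 and 63.9 in SIRT6-tg males, without overlap and with a log2 fold change of −1.82 ± 0.22. *Slamf6*, a self-binding receptor of T, NK and B cells, had 22.4, 36.6 and 51.2 in WT males and 5.38, 12.5 and 19.6 in SIRT6-tg males, also without overlap, with a log2 fold change of −1.50 ± 0.27. *Slamf1*, the founding member and a receptor of activated lymphocytes and phagocytes, was close to the limit of detection. It had 2.63, 7.71 and 15.7 in WT males and 0, 2.72 and 4.36 in SIRT6-tg males, with at most 18 reads in any library. A count of 0, seen for *Slamf1* in 2 male SIRT6-tg libraries and 1 female WT library, allows up to 3 reads at the 95% level, a limit that covers counting error only. Its log2 fold change was −1.95 with the widest error of the family, an SE of 0.51.

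*Cd48* and *Cd84*, both found on many classes of blood cells, had the smallest differences in males. *Cd48*, the ligand of CD244 and CD2, had 75.6, 172 and 255 in WT males and 50.8, 65.4 and 83.3 in SIRT6-tg males, and its log2 fold change was −1.38 ± 0.22. *Cd84*, a self-binding receptor of B cells, macrophages and platelets, had 202, 400 and 497 in WT males and 130, 169 and 212 in SIRT6-tg males, with a log2 fold change of −1.08 ± 0.16. The ranges of both genes overlapped, with 6 of 7 SIRT6-tg males below all WT males for *Cd48* and 5 of 7 for *Cd84*.

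**Figure D1:**
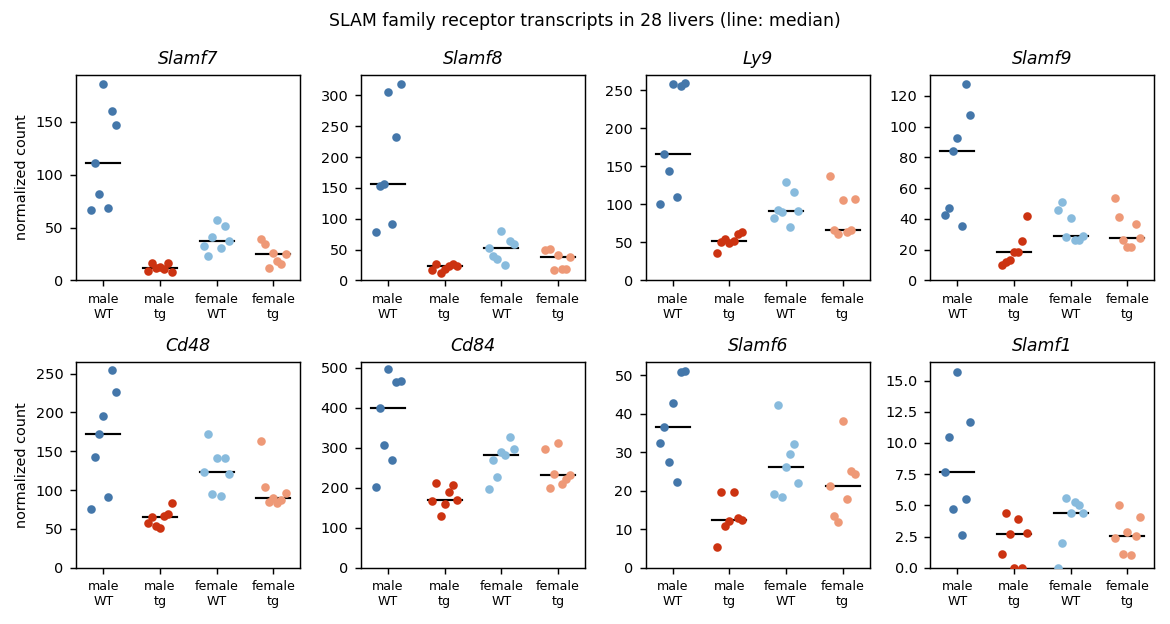
Normalized count of each receptor (y axis, linear, from 0) in every mouse of the 4 groups (x axis), with a line at the group median. The 7 male WT mice lie above all 7 male SIRT6-tg mice for *Slamf7*, *Slamf8*, *Ly9* and *Slamf6*, and the female groups overlap in all 8 panels.

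By the adjusted p-value of edgeR's quasi-likelihood test (threshold 0.05, adjusted over all genes), 8 of 8 receptors counted as lower in SIRT6-tg males, where 11% of all genes tested did. For 4 of 8 all 7 SIRT6-tg males were below all 7 WT males, which 4.37% of all genes showed. Nothing is read from these counts, since the comparison chose the genes. The median log2 fold change was −1.89 over the receptors and 0.06 over all genes.

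In females the receptors showed smaller differences, and none passed the test. This comparison did not enter the choice of the genes and was therefore tested. *Slamf7* had 23.1, 37.5 and 56.9 normalized counts in female WT and 12.0, 25.3 and 39.1 in female SIRT6-tg mice, so the groups overlapped, with 3 of 7 SIRT6-tg females below all WT females. Its log2 fold change was −0.67 with a 95% interval of −1.22 to −0.13, an unadjusted p of 0.0172 and an adjusted p of 0.696 by edgeR. *Slamf8* had 24.3, 52.5 and 79.8 in female WT and 16.4, 38.5 and 51 in SIRT6-tg females, with a log2 fold change of −0.57 (−1.22 to 0.09) and an adjusted p of 0.973 by edgeR. Both genes had overlapping groups, while all 7 SIRT6-tg females were below the median WT female for *Slamf8* and 6 of 7 for *Slamf7*.

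The remaining receptors had log2 fold changes between −0.46 and −0.12 in females, and edgeR gave each an adjusted p of 1. *Cd48* had 92.9, 123 and 172 in female WT and 82.8, 89.7 and 164 in SIRT6-tg females, and its log2 fold change was −0.33 (−0.76 to 0.11). *Cd84* had 198, 282 and 327 against 201, 231 and 311, a log2 fold change of −0.15 (−0.48 to 0.18). *Ly9* had 70.8, 91.5 and 129 against 61.1, 66.0 and 138, with a log2 fold change of −0.15 (−0.59 to 0.30). *Slamf9* had 26.1, 28.7 and 51.3 against 21.9, 27.4 and 53.4, with a log2 fold change of −0.12 (−0.73 to 0.50). *Slamf6* had 18.4, 26.2 and 42.2 against 12.0, 21.3 and 38.2, with a log2 fold change of −0.32 (−0.85 to 0.22). *Slamf1*, with 0, 4.41 and 5.60 against 0.997, 2.53 and 5.01, had too few reads for a narrow estimate, and its interval of −1.56 to 0.63 included 0.

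By edgeR 0 of 8 receptors were called in females, where edgeR called 0.0278% of all genes in either direction and 0.00463% lower. DESeq2 also called 0 of 8, where it called 44 of the 16980 genes it gave an adjusted p, 0.259%, and 0.118% as lower. At an unadjusted p under 0.05, 1 of 8 was lower, *Slamf7*, against 3.14% of all genes. All 8 log2 fold changes were below 0 in females, as were 49.4% over all genes, but the receptors share the same 14 mice and vary together, so they are not 8 separate observations. For 0 of 8 were all 7 SIRT6-tg below all 7 WT females, as was the case for 0.0417% of all genes. The median was −0.32 over the receptors and 0.00 over all genes.

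**Figure D2:**
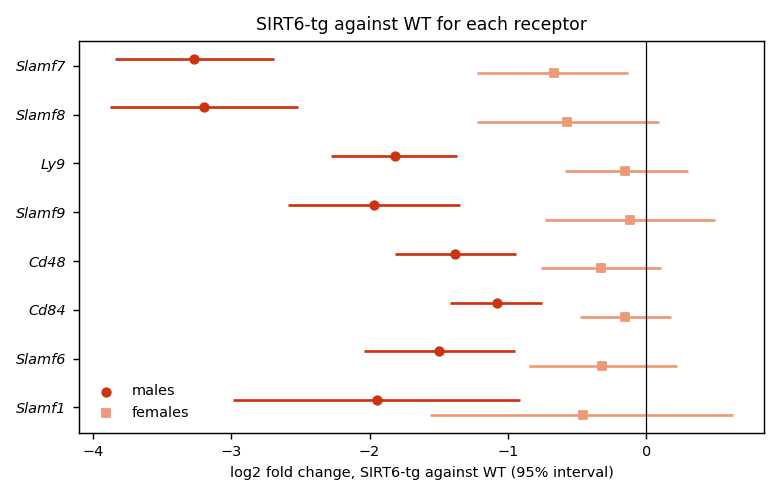
Log2 fold change of SIRT6-tg against WT (x axis) for each receptor (y axis) in males (circles) and females (squares), with 95% intervals as lines. The male estimates run from −3.27 for *Slamf7* to −1.08 for *Cd84*, and the female interval leaves out 0 for *Slamf7* alone, before adjustment for the number of genes tested.

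The difference between the male and the female effect, given without a test because it contains the male comparison, was negative for each receptor and for 47% of all genes. It ranged from −0.93 ± 0.23 (SE) for *Cd84* to −2.64 ± 0.46 for *Slamf8*, with −2.59 ± 0.39 for *Slamf7*. Past the adjusted threshold were 6 of 8, all except *Slamf6* and *Slamf1*, where 3.84% of all genes were past it in that direction, and nothing is read from this count, since it contains the comparison that chose the genes. Sex and transgene level cannot be told apart here, since the median normalized count of *Sirt6* was 7088 in male and 774 in female SIRT6-tg mice.

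The WT mice of both sexes also differed. The log2 fold changes of male WT over female WT livers were above 0 for each receptor and ran from 0.39 ± 0.21 for *Cd48* to 1.93 ± 0.30 for *Slamf8*. The median was 1.04 over the receptors and −0.0 over all genes. The 95% intervals of *Cd48* (−0.04 to 0.81) and *Slamf6* (−0.03 to 0.99) included 0, and 2 male WT mice were below all female WT mice for *Cd48*. For *Slamf7* the difference was 1.59 ± 0.25, and all 7 male WT mice were above all 7 female WT mice, as was seen for 1.33% of all genes. *Slamf7*, *Slamf8*, *Slamf9* and *Ly9*, 4 of 8, were past the adjusted threshold as higher in male WT mice, where 6.65% of all genes were. These values share the male WT libraries with the comparison that chose the genes and are a description. In SIRT6-tg mice the order was the other way for most members, with the male median below the female median for 7 of 8 receptors (11.8 and 25.3 for *Slamf7*, 169 and 231 for *Cd84*), *Slamf1* being the exception with 2.72 and 2.53. The male and female SIRT6-tg ranges overlapped for all 8, and 2.56% of all genes had all 7 males below all 7 females. The share of all genes with the male median lower is not given here.

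Levels were compared between the receptors as fragments per kb of exon, scaled to library size (FPKM, computed here from the counts and the union of exons). *Cd48* was the highest in every group, with median FPKM of 5.52 in male WT, 2.10 in male SIRT6-tg, 3.96 in female WT and 2.88 in female SIRT6-tg mice. *Slamf6* and *Slamf1* were the lowest in every group, at 0.129 and 0.0478 in male WT mice. In male WT mice *Slamf9* (2.44), *Cd84* (2.44), *Slamf8* (1.94) and *Ly9* (1.92) followed *Cd48*, and neighbours among these 4 overlapped and changed order from mouse to mouse, while *Slamf7* (0.924) was below *Ly9* in each of the 7 mice. In male SIRT6-tg mice the order was *Cd48*, *Cd84* (1.03), *Ly9* (0.601), *Slamf9* (0.532), *Slamf8* (0.292), *Slamf7* (0.0982), *Slamf6* (0.0441) and *Slamf1* (0.0169). *Ly9* and *Slamf9* overlapped there, as did *Slamf9* and *Slamf8*, and *Slamf6* and *Slamf1*, and the other neighbours did not. By its median *Slamf8* thus stood level with *Ly9* in male WT mice and below it in the other 3 groups. In female WT mice *Cd84* (1.72), *Ly9* (1.06), *Slamf9* (0.833), *Slamf8* (0.651) and *Slamf7* (0.313) came between *Cd48* and *Slamf6*, and neighbours in this order overlapped except *Cd48* and *Cd84*, *Slamf7* and *Slamf6*, and *Slamf6* and *Slamf1*. In SIRT6-tg females *Slamf9* (0.796) came before *Ly9* (0.762), and the neighbours that did not overlap were *Cd48* and *Cd84*, *Ly9* and *Slamf8*, and *Slamf6* and *Slamf1*.

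The other genes of the SLAM pathway were described from lists. Both further receptors of the family's ligands had lower means in SIRT6-tg males, *Cd244a*, the receptor of CD48 on NK cells, with a log2 fold change of −1.62 ± 0.27 and *Cd2*, the other CD48 receptor of mouse T cells, with −1.76 ± 0.31. Of the adaptors, *Sh2d1a* had −2.37 ± 0.48 and *Sh2d1b1* −2.91 ± 0.57 in males. The latter had at most 17.7 normalized counts, and *Sh2d1b2*, a close copy whose reads may not be separable, was below the filter. In females the log2 fold changes were −0.28 for *Cd244a*, −0.32 for *Cd2*, −1.04 for *Sh2d1a* and 0.02 for *Sh2d1b1*, none past the threshold by edgeR.

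Of 8 kinases and effectors acting after the adaptors, 6 were called lower in males, against 11% of all genes. Among them were *Lck* (−1.89), *Vav1* (−1.55), *Plcg2* (−1.30), *Fyn* (−0.68), the kinase bound by SAP, and *Prkcq* (−0.60). *Plcg1*, expressed in many cell types, had 0.08 and *Zap70* 0.68, and neither passed. Of 5 inhibitory and regulatory enzymes, the phosphatases *Ptprc* (−1.71), *Inpp5d* (−1.31) and *Ptpn6* (−0.36) were called lower in males, while the phosphatase *Ptpn11* had 0.05 and *Csk*, a kinase that inhibits Src family kinases, had 0.08. All 6 subunits of the NOX2 oxidase, among them *Cybb* with −1.54 and *Ncf1* with −1.39, were called lower in males, with log2 fold changes from −1.59 to −1.23. Of 6 genes linked to NKT and other innate-like lymphocytes, 4 were called lower in males, *Il2rb* (−1.72), *Tbx21* (−1.35), *Il18r1* (−1.33) and *Cxcr6* (−0.98), and *Cd1d1*, which presents lipids to NKT cells and had 3670 to 7711 normalized counts across all libraries, was called higher (0.35). *Zbtb16*, the transcription factor of NKT cells, had −1.22 ± 0.62 and did not pass. Of 4 partners of SLAMF1 in phagocytes, all of them genes of autophagy expressed in most cells, 0 were lower and *Pik3c3* was higher (0.19). In females edgeR called 0 genes of these lists, and 4 had an unadjusted p under 0.05, as had 1212 of the 21583 genes tested.

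The transcripts of most leukocyte classes moved with the receptors in males. Called lower were 6 of 6 general leukocyte genes (*Ptprc*, *Cd53*, *Laptm5*, *Coro1a*, *Cd52* and *Arhgdib*), 8 of 8 of T cells, 7 of 9 of NK and cytotoxic cells, 10 of 10 of Kupffer cells and macrophages, 5 of 7 of B cells, 3 of 5 of plasma cells, 5 of 8 of dendritic cells and 3 of 7 of monocytes and neutrophils. Over all genes 11% were called lower in males. In the NK and cytotoxic list *Ncr1* (−0.45 ± 0.53) and *Klrb1c* (−0.52 ± 0.33) were not called. Of the other liver cells, 1 of 6 endothelial, 4 of 6 stellate and 0 of 5 cholangiocyte genes were called lower, and 3 of 8 hepatocyte genes were called higher, where 9.68% of all genes were. In females 0 genes of these 12 lists were called by edgeR. An unadjusted edgeR p under 0.05 was seen for 5 of the 8 T cell genes, all of them lower. It was seen for at most 1 gene of each other list, and for 1212 of the 21583 genes tested. The T cell genes come from the same mice, so they are not separate observations. The summed level of the general leukocyte list was 114 to 251 CPM in male WT, 51.8 to 82.5 in male SIRT6-tg, 74.1 to 141 in female WT and 71.5 to 126 in female SIRT6-tg mice, and that of NK and cytotoxic cells 11.8 to 49.8, 3.69 to 7.88, 5.93 to 16.4 and 6.90 to 17.8 CPM. For Kupffer cells and macrophages the sums were 470 to 1527, 385 to 656, 511 to 1042 and 393 to 965 CPM, and for T cells 14.5 to 47.2, 5.01 to 7.21, 4.92 to 17.2 and 5.33 to 10.9 CPM. No marker of these lists was at 0 in all libraries. In RNA of whole liver, fewer cells of a type and less RNA per cell cannot be told apart, and the part of the cell markers in the values of the receptors was not tested.

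Each receptor was therefore also set against the mean log2 CPM of the 6 general leukocyte genes in the same mouse, as a description. The leukocyte mean itself was 1.38 log2 units lower in SIRT6-tg than in WT males, with no overlap, and 0.29 lower in females. Relative to it, *Slamf7* went from a median of −2.66 in WT males (−2.96 to −2.20) to −4.21 in SIRT6-tg males (−5.05 to −3.89), a difference of the means of −1.64. *Slamf8* went from −2.13 (−2.49 to −1.49) to −3.59 (−4.0 to −3.27), a difference of −1.56. All 7 SIRT6-tg males were below all 7 WT males for both genes, as for 0.315% of all genes on this scale, and nothing is read from this, since these are values of the comparison that chose the genes. The scale is the mean of 6 genes, and other leukocyte genes had log2 fold changes as low in males, with a median of −2.59 (−3.99 for *Eomes* to −0.45) over the NK and cytotoxic list and of −2.38 (−3.67 for *Cd8a* to −1.20) over the T cell list.

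The other 6 receptors overlapped between the male groups on this scale. *Slamf9* had a difference of −0.45 and *Ly9* of −0.32, *Slamf6* of −0.01, *Slamf1* of 0.04, *Cd48* of 0.13 and *Cd84* of 0.36. As for *Slamf7* and *Slamf8*, nothing is read from these differences, since they are values of the comparison that chose the genes. In addition, the prior count of 2 in log2 CPM shrinks differences, more so for genes with few reads. In males *Slamf1* itself differed by −1.34 in log2 CPM, against a log2 fold change of −1.95 by edgeR. For *Slamf7* these values were −3.02 and −3.27, and for *Slamf8* −2.95 and −3.20. In females the differences were −0.40 for *Slamf7*, −0.31 for *Slamf8* and between −0.04 and 0.16 for the others, and the groups overlapped for all 8.

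**Figure D3:**
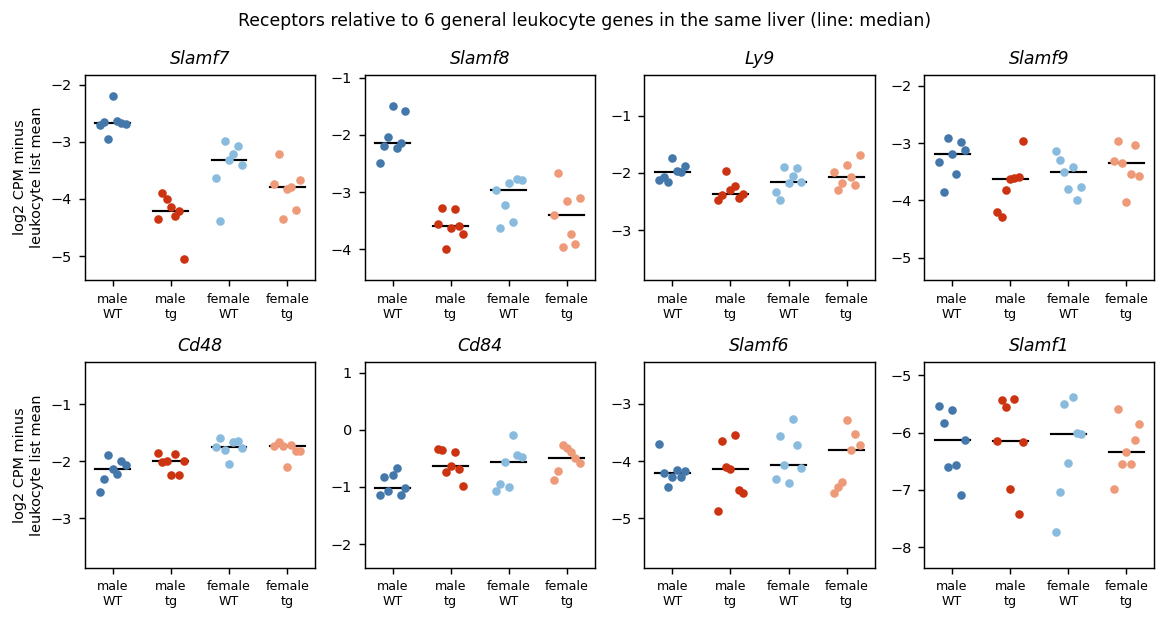
Log2 CPM of each receptor minus the mean log2 CPM of 6 general leukocyte genes in the same mouse (y axis, 3.6 log2 units high in every panel) for the 4 groups (x axis), with a line at the median. The male groups are apart for *Slamf7* and *Slamf8*, with differences of −1.64 and −1.56, and overlap for the other 6 receptors.

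How closely each receptor followed the marker lists from mouse to mouse was tested by the spread within the groups. The choice of the genes did not use that spread. For each mouse the deviation of a receptor's log2 CPM from its group mean was correlated with that of the mean of a marker list over the 28 mice. P-values came from 100000 two-sided permutations of the deviations within groups and were adjusted over 96 pairs, and the smallest p these can give is 1e-05. By Pearson's r 46 of 96 pairs, and by Spearman's rho 51, had an adjusted p under 0.05. These counts cover positive and negative correlations and all 12 lists, also those of other liver cells. The share of such pairs over all genes was not computed, so nothing is read from the counts.

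*Slamf7* followed the NK and cytotoxic list most closely, with r = 0.85 and rho = 0.82 (permutation p 1e-05 for r and 2e-05 for rho, adjusted 0.00012 and 0.000213). Without the 2 mice farthest from the median of the list r was 0.82, and it was 0.82 within females and 0.90 within males. Its r with the general leukocyte list was 0.66 (rho 0.66, permutation p 0.00068 for r and 0.00069 for rho, adjusted 0.00272 and 0.00304), and 0.58 without the 2 farthest mice. With plasma cells, a class known for the SLAMF7 protein, r was 0.15 (rho 0.11, permutation p 0.466 and 0.599, adjusted 0.533 and 0.653) and 0.18 without the 2 farthest mice. The plasma cell list holds *Tnfrsf17*, with at most 5.93 normalized counts, and *Derl3*, with 12.6 to 524. A low r with this list therefore says little about plasma cells. *Slamf8* followed the leukocyte list with r = 0.84 (rho 0.84) and the NK and cytotoxic list with r = 0.83 (rho 0.82), each with a permutation p of 1e-05 and an adjusted p of 0.00012 for r and for rho, and r was 0.82 and 0.79 without the 2 farthest mice. With Kupffer cells and macrophages r was 0.76 for *Slamf8* and 0.61 for *Slamf7* (permutation p 6e-05 and 0.00239, adjusted 0.000443 and 0.0074). With dendritic cells *Slamf7* had 0.65 (permutation p 0.00039, adjusted 0.00178). Both receptors thus followed several leukocyte lists at once. The difference between correlations was not tested.

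*Cd48* had the highest r of the family with the leukocyte list, 0.92 (rho 0.89), followed by *Ly9* with 0.89 (rho 0.88), both with a permutation p of 1e-05 and an adjusted p of 0.00012 for r and rho, and with r of 0.89 and 0.86 without the 2 farthest mice. With Kupffer cells and macrophages *Cd48* had 0.86 and *Ly9* 0.84 (permutation p 1e-05, adjusted 0.00012 for both). *Ly9* had 0.73 with T cells and 0.45 with B cells (permutation p 8e-05 and 0.0212, adjusted 0.000549 and 0.0442). *Slamf9* had 0.78 with it (rho 0.68, permutation p 2e-05 and 0.00035, adjusted 0.000213 and 0.00187), and 0.72 without the 2 farthest. *Cd84* was highest with Kupffer cells and macrophages, at 0.77 (rho 0.77, permutation p 3e-05 and 1e-05, adjusted 0.000288 and 0.00012), and 0.68 without the 2 farthest. *Slamf6* had 0.52 with the leukocyte list (rho 0.56, permutation p 0.006 and 0.00391, adjusted 0.0165 and 0.0121), and 0.50 without the 2 farthest. *Slamf1* passed for no leukocyte list. Its r was 0.40 with B cells (rho 0.29, permutation p 0.029 and 0.14, adjusted 0.0592 and 0.179), and 0.39 without the 2 farthest, and it had −0.54 with hepatocyte genes (rho −0.51, permutation p 0.00433 and 0.00859, adjusted 0.013 and 0.0217), −0.44 without the 2 farthest. Hepatocyte genes had the lowest r of the lists for every receptor. This r was −0.63 for *Ly9*, −0.53 for *Slamf7* and *Slamf8* and −0.51 for *Cd84*, all past the adjusted threshold by permutation. For *Cd48* (−0.42), *Slamf6* (−0.29) and *Slamf9* (−0.14) it did not pass.

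Within females alone 16 of the 96 pairs passed and within males alone 33, again over both signs and without the share for all genes. *Slamf9* with the leukocyte list (r = 0.64, permutation p 0.0214, adjusted 0.0821), *Cd84* with Kupffer cells and macrophages (0.66, 0.0149 and 0.0681) and *Slamf6* with the leukocyte list (0.38, 0.198 and 0.352) did not pass in females, and had r of 0.86, 0.85 and 0.64 in males. In females and males r with the leukocyte list was 0.90 and 0.93 for *Cd48*, 0.83 and 0.94 for *Ly9* and 0.76 and 0.91 for *Slamf8*.

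**Figure D4:**
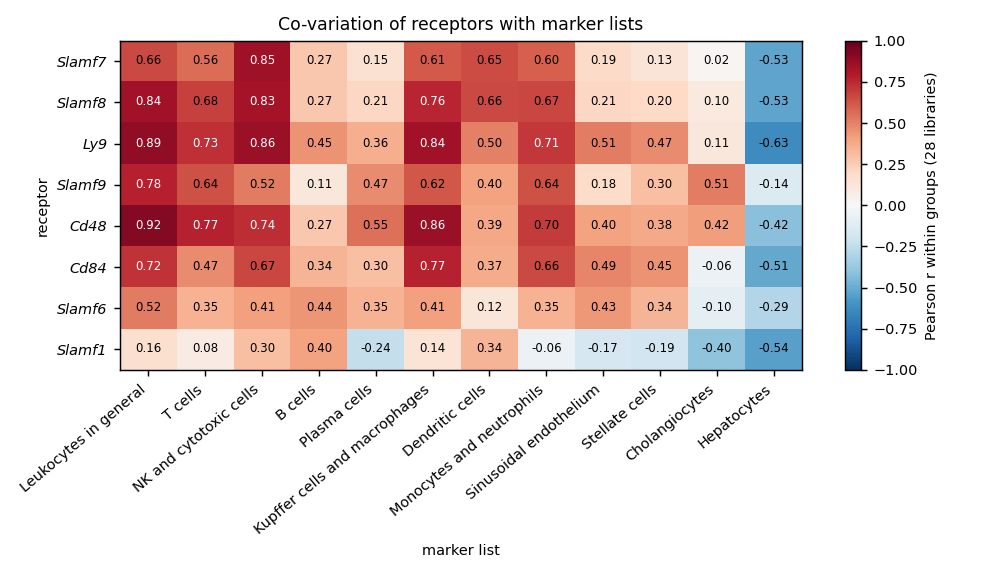
Pearson r over 28 mice between the within-group deviations of each receptor (rows) and of each marker list (columns), on a scale from −1 (blue) to 1 (red). *Slamf7* has its highest r, 0.85, with NK and cytotoxic cells, *Cd48* has 0.92 with leukocytes in general, and the row of *Slamf1* stays at 0.40 or below.

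Among the receptors themselves, *Slamf7* and *Slamf8* varied together within groups (r = 0.83, rho 0.85, over 28 mice, as a description without a test), as did *Slamf8* and *Ly9* (0.81), *Cd48* and *Ly9* (0.80) and *Cd48* and *Slamf9* (0.80). *Slamf7* and *Slamf9* had an r of 0.34. The pairs share libraries and sequencing depth. Some mice were low or high for most members: male WT replicate 5 was among the 2 lowest of its group for 8 of 8 receptors and replicate 1 for 6 of 8, and these mice also had the lowest leukocyte means of the group, 4.05 and 4.10 log2 CPM against up to 5.29. Male WT replicate 7 was among the 2 highest for 7 of 8, and female SIRT6-tg replicate 1 for 6 of 8.

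The genes most like each receptor were taken as the 3 with the highest r of within-group deviations over the 28 mice, among 14019 genes with a mean normalized count of at least 10. For *Slamf8* they were *Gbp2*, an interferon-induced GTPase (r = 0.91), *Lair1*, an inhibitory collagen receptor (0.90), and *H2-Aa*, a class II histocompatibility chain (0.90). *Gbp2* was also among those of *Slamf7* (0.82), with *Abr* (0.82) and *Serpina3g* (0.82). In males *Gbp2* had a log2 fold change of −3.08 and *H2-Aa* of −2.61, and in females −0.25 and −0.27. *Slamf9* was most like *Arpc1b* (0.92), *Lst1* (0.91) and *Cd52* (0.90). *Ly9* was most like *Clec7a*, the beta-glucan receptor of myeloid cells (0.93), *Rab8b* (0.90) and *Plek* (0.89). *Cd48* was most like *Fcer1g* (0.92), *Pkm* (0.92) and *C1qb* (0.91), and *Cd84* like the scavenger receptor *Msr1* (0.87), *Cd53* (0.86) and *Dse* (0.85). *Slamf6* was most like *Ccr7* (0.71), *Spn* (0.71) and *Prkcq* (0.70). *Slamf1* had too low a mean to be ranked.

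The protein-coding genes within 250 kb of a receptor were mixed in direction. Of 33 such neighbours 30 were tested, and in males 7 were called lower and 2 higher, with a median log2 fold change of −0.36, against 11% lower, 9.68% higher and a median of 0.06 over all genes. Those lower included *Cd244a* and the blood cell gene *Arhgap30* (−1.49), *Kcnj10* (−1.60) and *Tagln2* (−1.01), and the higher ones were *Nit1* (0.34) and *Pex19* (0.29). *Copa* (0.14) and *Ncstn* (0.01), which lie between both groups of receptors, and *Dusp23* (0.29), beyond *Slamf8*, were not called. In females 0 of the 30 were called by edgeR.

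**Figure D5:**
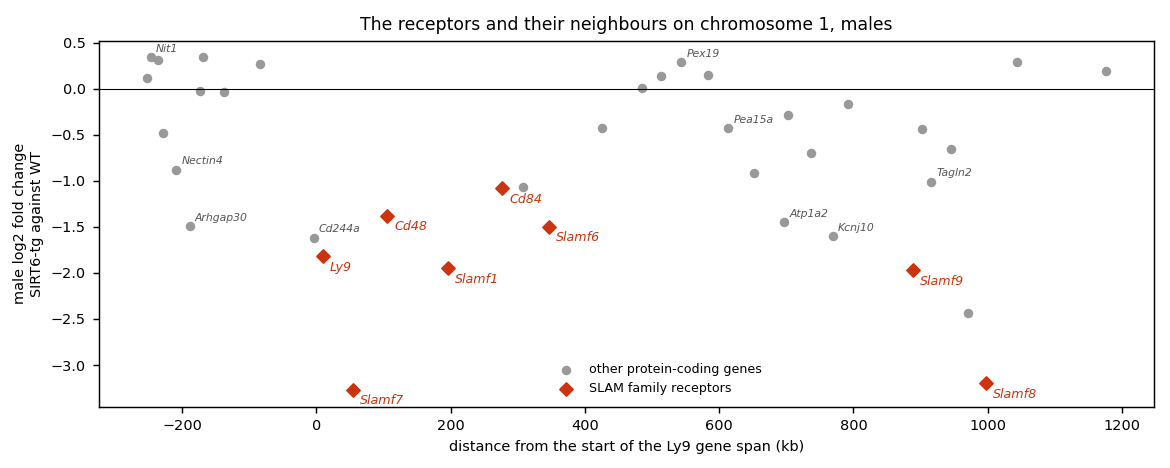
Male log2 fold change of SIRT6-tg against WT (y axis) by distance in kb from the start of the *Ly9* gene span (x axis), for the 8 receptors (red diamonds) and the tested protein-coding genes within 250 kb (grey circles, named where past the threshold). All 8 receptors lie at −1.08 or below, while the neighbours have a median of −0.36.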

How the data were processed

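Liver RNA of 28 mice was sequenced, with 7 mice in each group. Per the submitters' processing notes and the methods, single-end reads were aligned to mm10 (GRCm38) with STAR 2.5.0a and uniquely mapped reads were counted per Gencode gene with HTSeq. The authors deposited raw counts per gene without normalization, 1 column per library, each matched to 1 sample by its name. According to the methods, SIRT6-tg mice were compared with WT littermates that shared their cages. The labels do not tie mice to litters, cages or batches, so none of these entered the fit.

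The members and gene lists were chosen with earlier results of these data known. Symbols and coordinates were taken from Gencode vM21 (49326 of 49585 features with a symbol). No libraries of a group agreed within sampling noise. Genes with a mean of at least 0.5 counts after DESeq2 scaling were kept (21583). Counts were normalized by TMM and tested in 1 fit of all 4 groups by edgeR 4.0.16 (robust quasi-likelihood F-test, R 4.3.3), with Benjamini-Hochberg adjustment over all genes and a threshold of 0.05. The script was tested on simulated data. DESeq2 1.42.0, the test used by the authors, was an alternative, as were other scalings and filters, separate fits of each sex, a replicate block, and each library left out in turn. Log2 CPM had a prior count of 2. Named genes were the 8 members, genes of the 7 partner lists, the neighbours within 250 kb, and the 3 most like genes of each member. A single gene of the partner lists is not reported here. Correlations were computed in Python 3.11.15 with numpy 2.4.6.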

Additional observations from a re-analysis of the deposited data

Results flagged for a closer look

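Dixon's test was applied to the 8 receptors in each of the 4 groups, 32 in all, and about 1 in 20 such groups is picked out by chance. It picked out 1. The highest normalized count of *Cd48* in female SIRT6-tg mice, 163.6, was far from the other 6 of that group (group median 89.7), and its gap to the next exceeded the critical share of the group's range for 7 values. It is within the range of the female WT mice (92.9 to 172). Without single libraries the female log2 fold change of *Cd48* ran from −0.48 to −0.24. The differences between the sexes in the genotype effect are values of the comparison that chose the receptors and were not tested as such.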

How the results depend on the processing

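The direction in males was kept under all scalings, filters, fits and left-out libraries, with log2 fold changes of *Slamf7* from −3.56 to −3.16 and of *Cd84* from −1.37 to −1.02, and 7 to 8 receptors called (7 under filterByExpr, which drops *Slamf1*). In females 0 receptors were called under every alternative. *Slamf7* ranged from −0.82 to −0.56, with edgeR or DESeq2 adjusted p of 0.501 to 1. The female count over all genes, 6, was 44 with DESeq2, 2 with each sex fitted separately and 3 to 16 with single libraries left out (3 without SIRT6-tg replicate 3 or 4, 10 without WT replicate 1 or 4, 14 without SIRT6-tg replicate 7, 16 without SIRT6-tg replicate 2). Library size alone moved the median log2 fold change of all genes in males from 0.06 to −0.22, gave 1863 genes in place of 1089 for the difference between the sexes, and for male against female WT 4212 genes in place of 2669 and 7 receptors in place of 4. The share of lower genes among male calls was 53.2% with TMM, 64.3% with RLE, 73.8% with upper-quartile scaling and 95.1% with library size alone. For the difference between the sexes it was 76.1%, 85.8%, 89.2% and 98.6%, and for the WT comparison 46.2%, 41.5%, 48.3% and 13.2%. Pairs of receptor and list past the threshold were 16 in females only, in place of 46. *Slamf6* (r = 0.38), *Slamf9* (0.64) and *Cd84* (0.66) then missed it. Relative to the leukocyte list the difference turned positive for *Slamf1* (0.04 in each sex), *Slamf9* (0.16) and *Ly9* (0.10) in females, *Cd48* in males (0.13) and *Cd84* (0.36 in males, 0.14 in females). For *Slamf1* the prior count of log2 CPM shrinks the male difference itself (−1.34 in log2 CPM, −1.95 by edgeR). For these changes the cause was not tested, beyond what each setting leaves out. Same-numbered libraries did not deviate together (r −0.12 to 0.23 in males, 2 of 14 libraries closest to their own number, and −0.28 to 0.27 and 1 of 14 in females). This gave no sign that the numbers pair mice, but it cannot exclude it, since a weak likeness of littermates would not be seen. With the replicate block 4209 genes were called in males and 6 in females. Depth limits *Slamf1* most.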
